A study of Mus musculus with 9 samples.

Results

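Interferon-stimulated and antigen presentation genes were followed in NIH-3T3 cells, a mouse embryonic fibroblast line, after transfection of a mimic or an inhibitor of miR-378-3p. The list named 37 genes, chosen by name with earlier results of these data known. Each was read from the probe set annotated to it alone, that of highest mean where there were several. A probe set of their own was found for 34 of the 37 genes, out of 19938 genes so measured on the array. Of these, 18 lay above the level filter, the 40th percentile of mean level (3.86 on the log2 scale), and were tested among 11963 genes, while 16 lay below it and are marked as near background. Gbp2 and Isg15 had only probe sets shared with another gene and none was found for Ifi44 in the annotation used, so these 3 are not analysed here.

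Interferons are secreted when a cell senses foreign nucleic acid, and they signal through receptors and Janus kinases to a transcription factor complex that holds Stat2 and Irf9. That complex binds the interferon-stimulated response element in promoters and switches on antiviral genes, such as those of the Ifit, Oas and Mx families. Interferon also raises the class I presentation pathway, in which proteasomes with the immune subunits Psmb8 and Psmb9 cut proteins, the Tap1 and Tap2 transporter moves the peptides, and B2m joins the heavy chain that displays them. Fibroblasts respond to interferon, and many of these genes are also transcribed at a low level without it.

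The 9 arrays fall into 3 groups of 3. Cells were transfected with a mimic of miR-378-3p, with an inhibitor of that miRNA or, as the control, with a RISC-free siRNA, each at 25 nM in DharmaFECT 1, and RNA was taken 48 h later. All 3 groups, the control included, thus received transfected RNA, and no untransfected cells are among the samples. The control is 1 RNA that differs from both active RNAs in kind, so responses to the transfected molecules themselves cannot be told apart from effects of miR-378-3p. The cells are 1 established line, and since the labels do not say whether the triplicates were separate cultures, p-values measure only how far these samples lie apart, and that distance may be technical.

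Values are log2 RMA values, 1 per probe set and array. Mimic 3 and inhibitor 1 lay at the ends of the first principal component (scores of -20.5 and 20.9, with 60.5% of the variance), and counts against the control are given with and without them. Of 9 fibroblast markers, all lay above the level filter, with Col1a1, Col1a2 and Vim at means of 11.0, 11.2 and 11.2. The macrophage markers Ptprc, Adgre1, Lyz2, Itgam, Cd14 and Tyrobp lay below it, with Cd68 (4.19) and Csf1r (4.02) just above, and none of the macrophage, lymphocyte, epithelial or endothelial markers tested was called against the control. Of the fibroblast markers, Thy1 rose with the mimic (log2 fold change 0.38, limma, adjusted p = 0.00823) and Col3a1 fell with the inhibitor (-0.22, adjusted p = 0.0427). Between mimic and inhibitor Col3a1 (0.32), Sparc (0.22) and Thy1 (0.22) were higher and Pdgfrb (-0.27) lower with the mimic, and the part of these markers in the results was not tested. In RNA from whole cultures, fewer cells that express a gene and less of its RNA per cell cannot be told apart.

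The plot of mean levels shows that many of the listed genes were read near background. The 16 genes near background had values between 3.30 and 4.02 on every array. They include several classical markers of an active response, namely Ifit1, Ifit3, Mx1, Mx2, Oas2, Oas3, Irf7, Usp18 and Cxcl10. Other such markers on the list lay above the filter, among them Ifit2 (mean 5.31), Bst2 (4.36), Oasl2 (4.06) and Rsad2 (3.93). Ifnb1, which encodes interferon beta, was near background as well, at 3.51, 3.56 and 3.47 with the mimic, 3.49, 3.49 and 3.44 with the inhibitor and 3.53, 3.48 and 3.47 in the controls. The 3 groups overlapped.

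**Figure D1:**
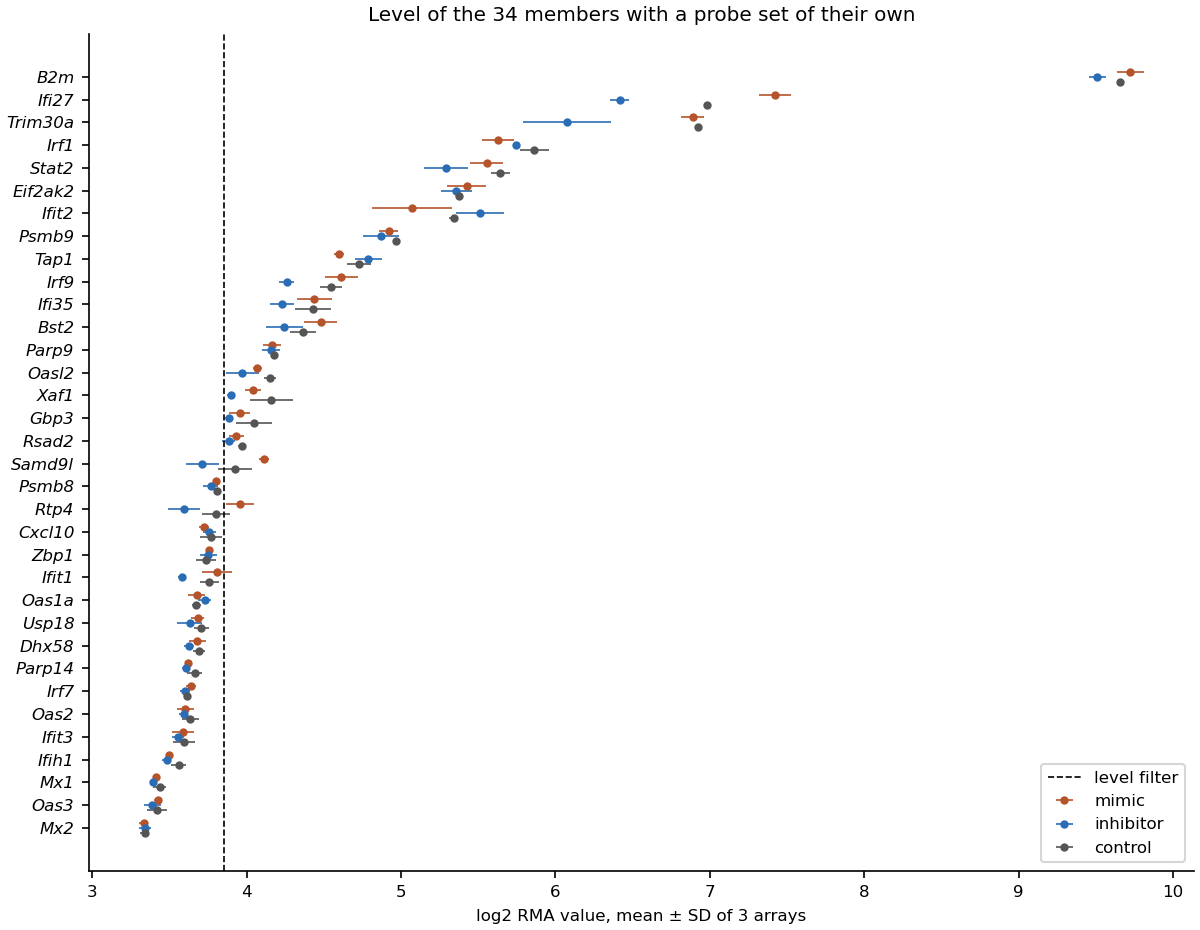
Mean log2 RMA value ± SD over 3 arrays (horizontal axis) of each of the 34 genes with a probe set of their own (rows), for mimic, inhibitor and control, with the level filter at 3.86 as a dashed line. Probe sets differ in their response, so values compare groups within a row and not genes with each other. The 16 genes whose mean over the 9 arrays lies left of the line have array values of 3.30 to 4.02.

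The inhibitor comparison asks which of these genes differ between cells given the inhibitor of miR-378-3p and the controls. Of 18 genes tested, 5 fell and 0 rose with the inhibitor: Trim30a, Ifi27, Stat2, Irf9 and Xaf1 (limma, Benjamini-Hochberg adjusted p under 0.05 over 11963 genes). Over all genes tested, 3.76% fell and 11.1% rose in this comparison, so falls were the less common direction on the array as a whole. Of the 18, 16 had a log2 fold change below 0, and their median was -0.16, against 0.01 for all genes tested. The 3 inhibitor arrays lay below all 3 control arrays for 12 of the 18 genes, where 12.8% of all genes did so, and above them for 1 (Ifit2), where 24.9% did. The count was 6 falls without mimic 3 and inhibitor 1, where Samd9l joined (adjusted p = 0.0241), 3 without inhibitor 1 alone and 2 without control 3 (Trim30a and Ifi27). The falls among all 11963 genes moved the same way, to 833, 348 and 237 in these fits, against 450 with every array. With quantile normalization 5 of the 18 fell, while over all genes the split moved to 1269 rises and 1021 falls, against 1330 and 450 for the values as deposited.

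**Figure D2:**
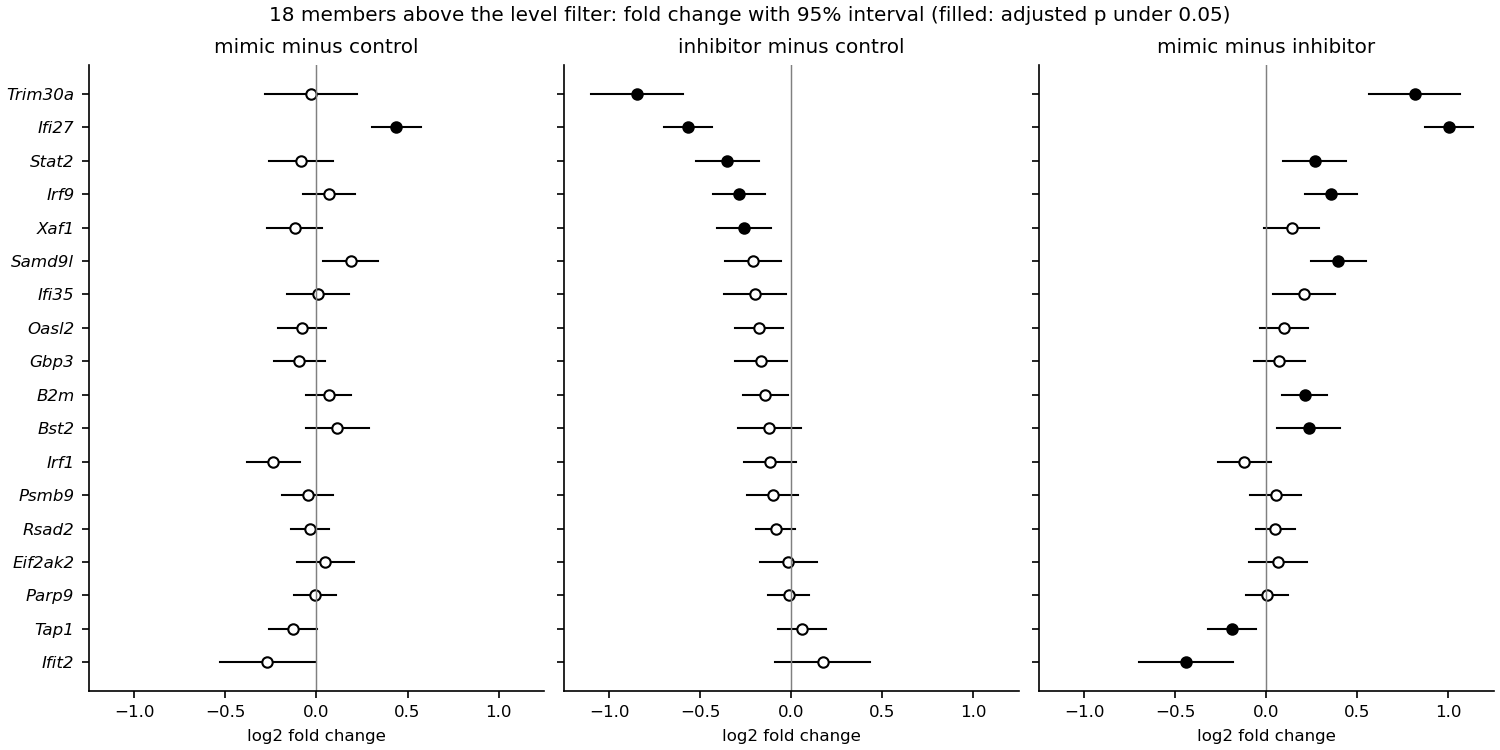
Log2 fold change (horizontal axis) with its 95% interval for the 18 genes tested (rows), as mimic minus control, inhibitor minus control and mimic minus inhibitor. Filled points passed the threshold: Ifi27 alone in the first panel, Trim30a, Ifi27, Stat2, Irf9 and Xaf1 in the second, and 9 genes in the third.

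Trim30a, a tripartite motif protein known in mouse to restrain signalling from Toll-like receptors, had the largest fall among the 18 genes. Its values were 6.93, 6.94 and 6.81 with the mimic, 6.38, 5.82 and 6.03 with the inhibitor, and 6.91, 6.91 and 6.94 in the controls. Each inhibitor array lay below every other array, while mimic and control arrays overlapped. With the inhibitor it fell by 0.85 ± 0.11 (log2, SE; limma, adjusted p = 0.0011), a level 1.8-fold lower. With the mimic it was -0.03 ± 0.11 (adjusted p = 0.934, 95% interval -0.28 to 0.22). The neighbouring paralog Trim30d was near background and untested, at 3.86, 3.97 and 3.67 with the mimic, 3.50, 3.38 and 3.57 with the inhibitor and 3.80, 3.77 and 3.92 in the controls. Its inhibitor arrays too lay below the other 6, and whether the 2 probe sets read each other's transcript was not tested.

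Ifi27, which encodes a small hydrophobic protein of the ISG12 family, was the single gene of the list that passed the threshold in all 3 comparisons. It had 7.54, 7.38 and 7.35 with the mimic, 6.44, 6.47 and 6.35 with the inhibitor, and 6.99, 6.97 and 6.99 in the controls. The 3 groups did not overlap, with the mimic arrays highest and the inhibitor arrays lowest. With the mimic it rose by 0.44 ± 0.06 (log2, SE; limma, adjusted p = 0.00413), and with the inhibitor it fell by 0.57 ± 0.06 (adjusted p = 0.000321). Mimic and inhibitor differed by 1.01 ± 0.06, a 2.01-fold difference (adjusted p = 1.41e-05). Its calls held in every fit with 1 array left out, with adjusted p of at most 0.0277, 0.00319 and 0.000223 in the 3 comparisons.

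Among the transcription factors of the response, Stat2 and Irf9 fell with the inhibitor. Stat2, the interferon-specific member of the STAT family, had 5.60, 5.63 and 5.43 with the mimic, 5.38, 5.13 and 5.37 with the inhibitor, and 5.69, 5.57 and 5.66 in the controls, and it fell by 0.35 ± 0.08 with the inhibitor (log2, SE; limma, adjusted p = 0.0146). Irf9, the DNA-binding subunit that joins Stat2, had 4.71, 4.63 and 4.50 with the mimic, 4.21, 4.26 and 4.31 with the inhibitor, and 4.49, 4.52 and 4.63 in the controls. It fell by 0.29 ± 0.06 (adjusted p = 0.0144). For both genes the inhibitor arrays lay below all other arrays. The Stat2 call ended without control 1 (adjusted p = 0.0633) or control 3 (0.0585), and the Irf9 call without inhibitor 1 (0.0527) or control 3 (0.0673).

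Irf1, a factor that interferon gamma induces, and Irf7, the factor that amplifies type I interferon, were not called. Irf1 had 5.73, 5.63 and 5.52 with the mimic, 5.74, 5.73 and 5.77 with the inhibitor, and 5.96, 5.87 and 5.77 in the controls, so both treated groups lay below the controls, the inhibitor arrays by less than 0.01 at their closest. Its log2 fold change was -0.24 with the mimic (limma, adjusted p = 0.0833) and -0.12 with the inhibitor (adjusted p = 0.277). Irf7 was near background, between 3.56 and 3.66 on all 9 arrays.

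The promoters of these genes were read in the RefSeq promoter table (GRCm38.p6, 250 bases before to 50 after each start) for the core of the interferon-stimulated response element, written as GAAA, any 2 bases and GAAA again, on either strand. Overlapping copies were counted. The table held 27 of the 37 listed genes, and 15 of them (55.6%) had the core in at least 1 window, against 3.99% of the 27025 genes in the table. Among genes above the level filter 7 of 16 had it, and among those near background 6 of 8. The gamma-activated sequence TTCNNNGAA, which reads the same on both strands and was counted also where it overlapped the core, stood in 7 of 27 (25.9%), against 9.55% of all genes. A match says that the letters are there and shows no binding.

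Of the 10 genes called in any comparison, 9 were in the table and 4 had the core, namely Trim30a, Stat2, B2m and Bst2, while Irf9, Xaf1, Ifit2, Samd9l and Tap1 had none in these windows. NCBI gene IDs of the 10 are 52668 for Ifi27, 20128 for Trim30a, 20847 for Stat2, 16391 for Irf9, 327959 for Xaf1, 209086 for Samd9l, 12010 for B2m, 69550 for Bst2, 15958 for Ifit2 and 21354 for Tap1. The sequences around the core of the 4 genes are shown, with that of Ifit1, a near-background gene with 2 copies, so that called genes and a near-background one can be compared. They run 5′ to 3′ on the gene's strand, with the core in capitals. Trim30a lies on the minus strand at chr7:104465195-104465254, and its core starts 36 bases before 1 of its listed transcript starts. Stat2 lies on the plus strand at chr10:128270251-128270310, with the core 222 bases before the start. B2m lies on the plus strand at chr2:122147523-122147582, with the core 139 bases before the start. The Bst2 window, on the minus strand at chr8:71537562-71537627, holds 2 overlapping cores, the first 130 bases before the start. Ifit1 lies on the plus strand at chr19:34640760-34640838, and its first core is 104 bases before the start.
Trim30a: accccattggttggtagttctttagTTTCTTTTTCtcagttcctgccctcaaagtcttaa
Stat2: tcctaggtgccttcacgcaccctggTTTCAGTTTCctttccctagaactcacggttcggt
B2m: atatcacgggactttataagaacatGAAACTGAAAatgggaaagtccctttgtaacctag
Bst2: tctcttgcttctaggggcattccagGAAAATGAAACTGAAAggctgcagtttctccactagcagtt
Ifit1: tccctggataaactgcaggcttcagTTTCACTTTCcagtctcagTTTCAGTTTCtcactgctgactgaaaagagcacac

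Among the membrane, GTPase and other effector genes, Xaf1 fell with the inhibitor and others pointed the same way without a call. Xaf1, which encodes an antagonist of the apoptosis inhibitor XIAP, had 4.10, 4.0 and 4.02 with the mimic, 3.93, 3.89 and 3.89 with the inhibitor, and 4.0, 4.23 and 4.25 in the controls. With the inhibitor it fell by 0.26 ± 0.07 (log2, SE; limma, adjusted p = 0.0282). The call ended without any 1 inhibitor array or without control 2 or 3, with adjusted p of 0.0609 to 0.116, and after median centring (0.0575). Samd9l, a growth-restraining antiviral gene, had a log2 fold change of -0.21 with the inhibitor (adjusted p = 0.0694), Ifi35 of -0.20 (0.111), Gbp3, a guanylate-binding protein, of -0.17 (0.112) and Bst2, the tethering protein that holds budding virus at the membrane, of -0.12 (0.355). Rsad2, which encodes viperin, and Parp9 had -0.09 and -0.02.

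The Ifit and Oas genes gave no call against the control. Ifit2, whose protein binds viral RNA and slows translation, had 5.08, 5.33 and 4.81 with the mimic, 5.69, 5.45 and 5.40 with the inhibitor, and 5.36, 5.36 and 5.31 in the controls. Its inhibitor arrays lay above the controls, the opposite side from most of the list, by 0.17 ± 0.12 (log2, SE; limma, adjusted p = 0.385). Oasl2, a relative of the 2′-5′ oligoadenylate synthetases, had a log2 fold change of -0.18 ± 0.06 with the inhibitor (adjusted p = 0.0733). Eif2ak2, the kinase PKR that senses double-stranded RNA, was the only one of the 4 sensors on the list above the level filter, with a log2 fold change of 0.05 ± 0.07 for the mimic (adjusted p = 0.811, 95% interval -0.11 to 0.21) and -0.02 ± 0.07 for the inhibitor (adjusted p = 0.907, -0.17 to 0.14). The other sensors of the list, Ifih1, Dhx58 and Zbp1, were near background, between 3.45 and 3.82.

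**Figure D3:**
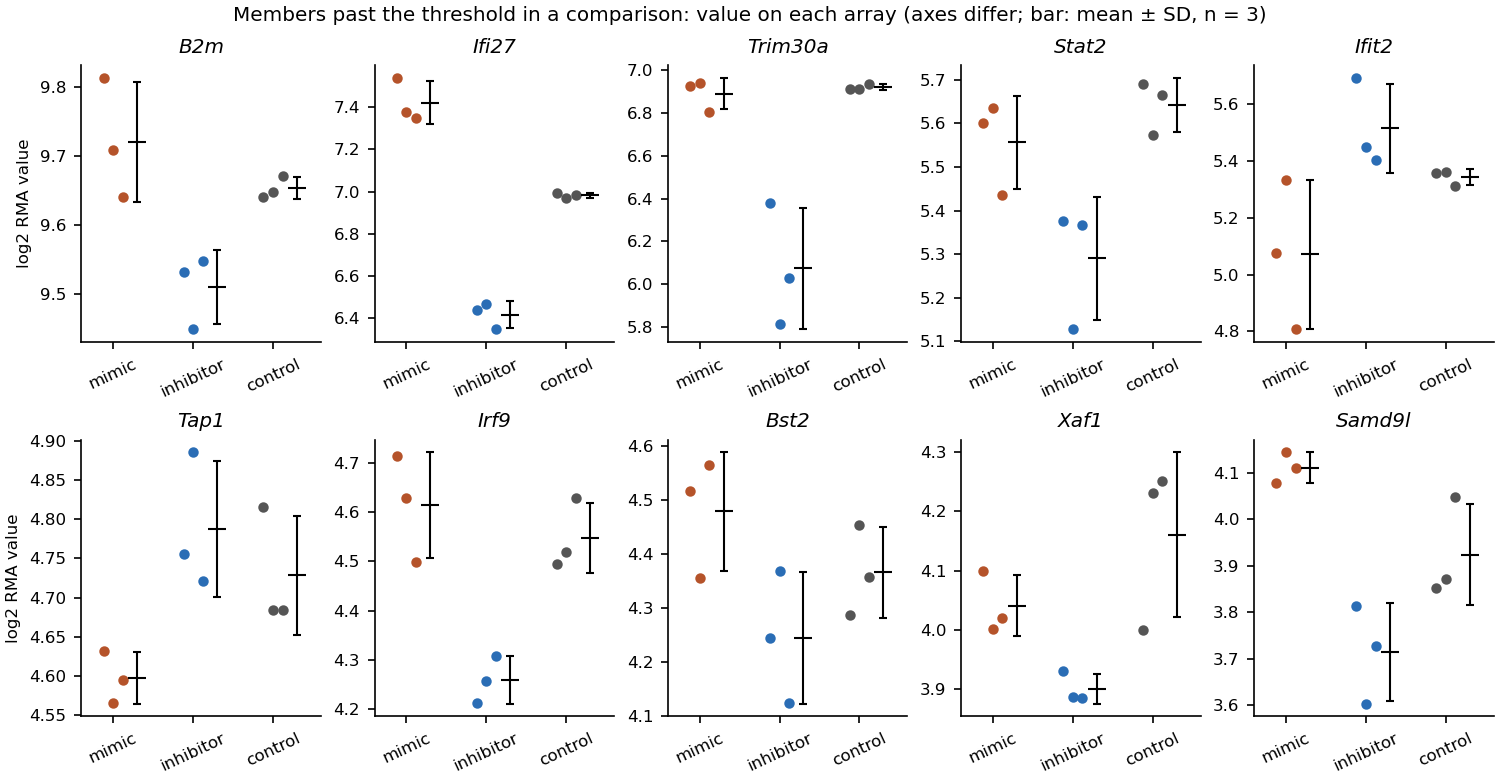
Log2 RMA value (vertical axis, a different range in each panel) on each array for the 10 genes past the threshold in at least 1 comparison, by group, with the mean ± SD of 3 arrays beside the points. The 3 groups of Ifi27 are apart. The inhibitor arrays of Ifi27, Trim30a, Stat2, Irf9, Xaf1, Samd9l and B2m lie below the others, and those of Ifit2 lie highest.

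The mimic comparison asks which of these genes differ between cells given the mimic of miR-378-3p and the controls. Of the 18 genes tested, Ifi27 rose and 0 fell (limma), where 1.1% of all genes tested rose and 2.45% fell. At an unadjusted p under 0.05 the count was 4, with 2 higher and 2 lower, where 701 and 1202 of all 11963 genes tested were. The median log2 fold change of the 18 was -0.03, against -0.01 for all genes tested. The groups did not overlap for 2 genes that were higher (8.67% of all genes) and 3 that were lower (12.7%), and Ifi27 was also the single call without mimic 3 and inhibitor 1. Over all genes, quantile normalization gave 335 rises and 439 falls, against 132 and 293 for the values as deposited, and leaving out mimic 3 and inhibitor 1 gave 492 and 429.

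Setting the mimic against the inhibitor leaves the control arrays out of the difference and tests whether both RNAs moved a gene unequally. Here 7 of the 18 genes were higher with the mimic, where 6.91% of all genes were, and 2 were lower, where 19.9% were. The groups did not overlap for 8 genes that were higher (12.9% of all genes) and 2 that were lower (25.7%). The median log2 difference was 0.12, against -0.02 for all genes tested. The higher genes were Ifi27, Trim30a, Samd9l, Irf9, Stat2, Bst2 and B2m, and the lower ones Ifit2 and Tap1. Without mimic 3 and inhibitor 1 the counts were 6 higher and 0 lower, and without mimic 1 they were 5 and 0. Of all 11963 genes, 1163 were higher and 1769 lower in the first of these fits, and 580 and 1903 in the second. Over all genes the split moved to 1670 higher and 2029 lower after quantile normalization, against 827 and 2377 for the values as deposited.

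Trim30a differed by 0.82 ± 0.11 (log2, mimic minus inhibitor, SE; limma, adjusted p = 0.000646), which is 1.76-fold. Samd9l had 4.08, 4.14 and 4.11 with the mimic, 3.81, 3.60 and 3.73 with the inhibitor, and 3.85, 3.87 and 4.05 in the controls, which lay between both. It differed by 0.40 ± 0.07 (adjusted p = 0.00227) while neither comparison with the control called it. Irf9 differed by 0.35 ± 0.06 (adjusted p = 0.00282). These 3 calls held with each array left out, at adjusted p of at most 0.0136. Stat2 differed by 0.27 ± 0.08 (adjusted p = 0.03), a call that ended without mimic 1 (0.0947), mimic 2 (0.0734) or inhibitor 2 (0.0878). It also ended after median centring (0.0869), without the level filter (0.0526) and in the fit of the 6 arrays of both groups (0.0723).

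Ifit2 was lower with the mimic than with the inhibitor, by -0.44 ± 0.12 (log2, mimic minus inhibitor, SE; limma, adjusted p = 0.018). The size of this difference rests on the 2 arrays at the ends of the first component, for it was -0.22 without them (adjusted p = 0.0584). It also ended without inhibitor 1 alone (-0.35, 0.0747) or mimic 1 alone (0.0505). Bst2 had 4.52, 4.36 and 4.57 with the mimic, 4.24, 4.37 and 4.12 with the inhibitor, and 4.29, 4.45 and 4.36 in the controls. Its difference of 0.23 ± 0.08 passed (adjusted p = 0.0481) although the groups overlapped, and of the 9 fits that drop 1 array only those without mimic 2 or inhibitor 2 kept it (adjusted p up to 0.169 in the rest).

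Of the antigen processing genes, B2m and Tap1 differed between mimic and inhibitor, in opposite directions. B2m, the invariant chain of class I molecules, had 9.81, 9.71 and 9.64 with the mimic, 9.53, 9.45 and 9.55 with the inhibitor, and 9.64, 9.65 and 9.67 in the controls. The mimic arrays all lay above the inhibitor arrays, and the difference was 0.21 ± 0.06 (log2, SE; limma, adjusted p = 0.0174), lost without mimic 1 (0.0708) or inhibitor 2 (0.0579) and after median centring (0.0584). Tap1, a subunit of the peptide transporter, had 4.63, 4.57 and 4.60 with the mimic, 4.76, 4.89 and 4.72 with the inhibitor, and 4.82, 4.68 and 4.68 in the controls. It was lower with the mimic by -0.19 ± 0.06 (adjusted p = 0.0379), in a call that held without control 1 or inhibitor 3 and in none of the other 7 such fits (adjusted p of up to 0.117).

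Psmb9, an inducible proteasome subunit, is transcribed away from Tap1, and their promoter windows share 275 bases on chr17:34187306-34187580. Neither window held the response element core. Psmb9 had 4.94, 4.85 and 4.97 with the mimic, 4.75, 4.99 and 4.86 with the inhibitor, and 4.95, 4.98 and 4.98 in the controls, which overlapped throughout (limma, adjusted p = 0.784 with the mimic and 0.337 with the inhibitor). Psmb8, its partner in the immune proteasome, was near background at 3.71 to 3.82.

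The rest of the class I pathway was read from a companion list with 16 genes tested. With the inhibitor 4 fell and 1 rose, where 3.76% and 11.1% of all genes tested did, and the median was -0.04, against 0.01 for all genes. With the mimic 1 fell and 0 rose, where 2.45% and 1.1% did, and the median was -0.06, against -0.01. Both counts were the same without mimic 3 and inhibitor 1, and the inhibitor falls were 2 without inhibitor 2, inhibitor 3, control 2 or control 3. Of all 11963 genes, 833 fell with the inhibitor without mimic 3 and inhibitor 1, and 234 to 321 in the fits without 1 of those 4 arrays, against 450 with every array. Tapbp, which encodes tapasin, the protein that bridges the transporter and class I molecules, had 8.59, 8.57 and 8.64 with the mimic, 8.27, 8.30 and 8.31 with the inhibitor, and 8.70, 8.70 and 8.68 in the controls. It fell by 0.40 ± 0.04 with the inhibitor (log2, SE; limma, adjusted p = 0.000378). The inhibitor arrays lay lowest, and no 2 groups overlapped.

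Psme1 and Psme2 encode the 2 subunits of the PA28 proteasome activator. Psme1 had 7.48, 7.46 and 7.54 with the mimic, 7.15, 7.16 and 7.04 with the inhibitor, and 7.45, 7.58 and 7.59 in the controls, and it fell by 0.43 ± 0.06 with the inhibitor (log2, SE; limma, adjusted p = 0.00112). Psme2 had 7.41, 7.33 and 7.39 with the mimic, 7.14, 7.05 and 6.92 with the inhibitor, and 7.25, 7.24 and 7.37 in the controls. It fell by 0.25 ± 0.06 (adjusted p = 0.029), which ended without inhibitor 2 or 3 or any control array (0.0577 to 0.118) and after median centring (0.0721). The Tapbp and Psme1 calls held with each array left out, at adjusted p of at most 0.00343 and 0.0086.

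Canx, the chaperone calnexin of the endoplasmic reticulum, rose by 0.31 ± 0.06 with the inhibitor (log2, SE; limma, adjusted p = 0.0105), with 10.14, 10.06 and 10.22 on the inhibitor arrays and 9.85, 9.80 and 9.84 on the control arrays. Its role is wider than antigen presentation, since it folds many glycoproteins. The nonclassical class I gene H2-Q4, at 3.90 just above the level filter, fell with the mimic (-0.22, adjusted p = 0.0337) and with the inhibitor (-0.17, adjusted p = 0.0333), and each call survived the loss of 3 of the 9 arrays, taken 1 at a time (adjusted p up to 0.151 and 0.126 for the others). Both comparisons share the control arrays, and class I genes are alike in sequence, so which relatives its probes also read is uncertain. Mimic against inhibitor called Tapbp (0.31), Psme1 (0.38), Psme2 (0.33), Psmb10 (0.25) and Canx (-0.45). These are 4 of 16 genes higher and 1 lower, where 6.91% and 19.9% of all genes were. The Psmb10 call ended without mimic 1 (limma, adjusted p = 0.0554), inhibitor 1 (0.0545) or mimic 3 and inhibitor 1 together (0.0625). The other calls held with each array left out. Tap2, Calr, Pdia3, Nlrc5, Erap1 and the standard proteasome subunits Psmb5, Psmb6 and Psmb7 passed in none of the 3 comparisons.

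**Figure D4:**
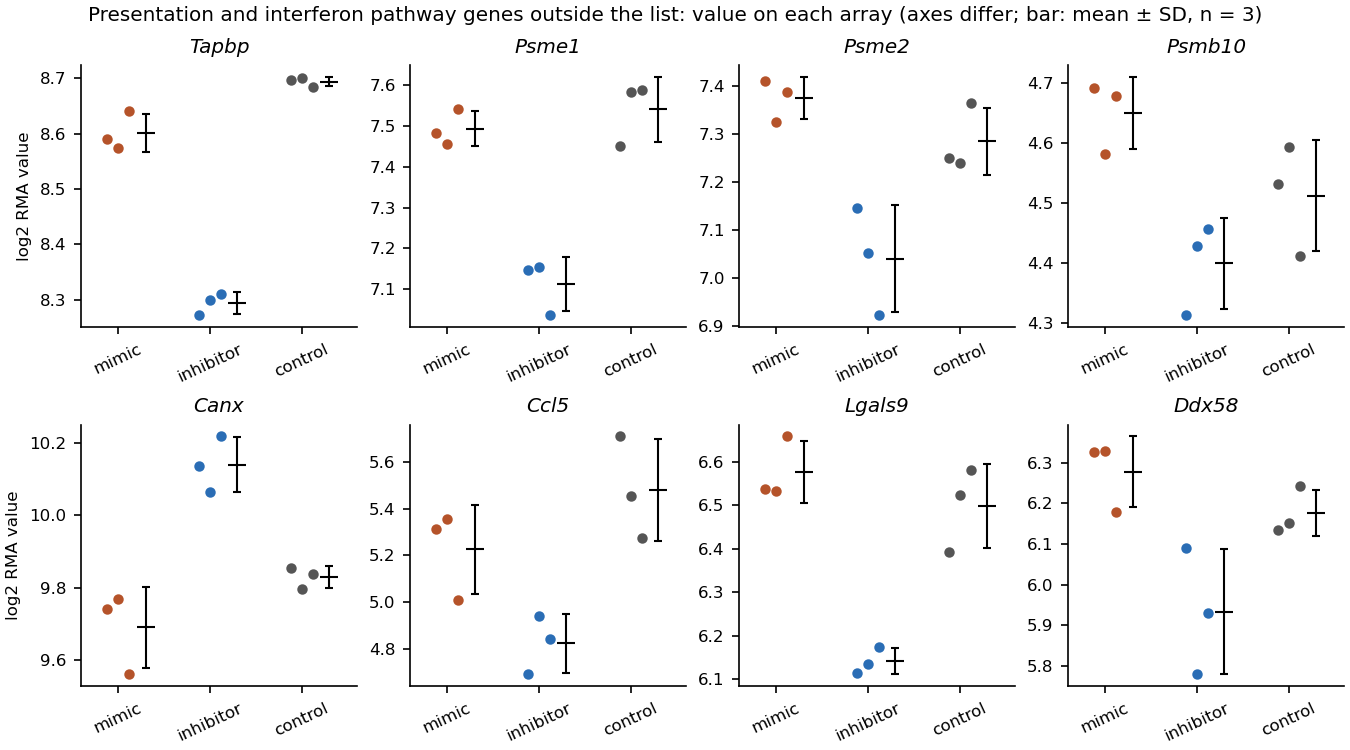
Log2 RMA value (vertical axis, a different range in each panel) on each array for 8 genes of the companion lists, by group, with the mean ± SD of 3 arrays beside the points. The inhibitor arrays lie below all other arrays for Tapbp, Psme1, Psme2, Ccl5, Lgals9 and Ddx58 and above them for Canx.

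Of 23 genes of interferon production and signalling tested, 1 rose and 1 fell with the mimic, where 1.1% and 2.45% of all genes did, and 1 rose and 0 fell with the inhibitor, where 11.1% and 3.76% did. Without mimic 3 and inhibitor 1 these were 2 and 1 with the mimic and 3 and 1 with the inhibitor. Among all 11963 genes that fit gave 492 rises and 429 falls with the mimic and 1669 and 833 with the inhibitor. After quantile normalization the inhibitor gave 1 rise and 4 falls, where falls among all genes increased too, to 1021 beside 1269 rises, against 450 and 1330 as deposited. The receptor genes Ifnar1 and Ifnar2 and the kinase genes Jak1 and Tyk2 had log2 fold changes between -0.12 and 0.08 in both comparisons, none called. With the inhibitor Ifngr1 and Ifngr2, the receptor subunits for interferon gamma, and the kinase gene Jak2 each had 0.23 (adjusted p = 0.114, 0.121 and 0.328), and all inhibitor arrays of the 2 receptor genes lay above the controls. Counting these, that held for 6 of the 23 genes, near the 24.9% of all genes tested. Socs3, an inhibitor of cytokine signalling, rose with the inhibitor by 0.27 ± 0.05 (SE; limma, adjusted p = 0.0062), although the mean of its probe sets gave 0.12 (adjusted p = 0.14). With the mimic, Myd88, an adaptor of Toll-like receptors, rose by 0.30 (adjusted p = 0.0372) and Mavs, the adaptor of the RNA sensors, fell by 0.22 (adjusted p = 0.0405). Dropping 1 array at a time kept them in 3 and 2 of 9 fits (adjusted p up to 0.142 and 0.17).

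Ddx58, which encodes the RNA sensor RIG-I, had 6.33, 6.33 and 6.18 with the mimic, 6.09, 5.78 and 5.93 with the inhibitor, and 6.13, 6.15 and 6.24 in the controls. Mimic and inhibitor differed by 0.34 ± 0.08 (log2, SE; limma, adjusted p = 0.00871), a difference that held with each array left out. Against the control the inhibitor gave -0.24 (adjusted p = 0.064), which passed after quantile normalization (-0.33, adjusted p = 0.00256), without inhibitor 1 (-0.32, 0.025), without mimic 3 (0.0308) and in the fit of the 6 arrays of both groups (0.0463). In the same direct comparison 5 of the 23 genes tested were lower with the mimic, where 19.9% of all genes were. With Ddx58, 2 were higher, where 6.91% were, so both counts lie near the shares over all genes. Besides Ddx58, Ifngr2, Mavs, Socs3, Trim25 and Cgas were lower and Irf3 was higher with the mimic, by at most 0.30. With 1 array left out at a time, Mavs was kept in 9 of 9 fits but lost after quantile normalization (adjusted p = 0.111). Ifngr2 and Trim25 were kept in 5, Socs3 in 4, Cgas in 2 and Irf3 in 1 (adjusted p up to 0.136). The Ifngr2 difference was -0.18 without mimic 3 and -0.16 without mimic 3 and inhibitor 1 (adjusted p = 0.0533).

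Of 29 other interferon-induced genes tested, 4 fell and 1 rose with the inhibitor, where 3.76% and 11.1% of all genes did, and 0 were called with the mimic (limma), where 2.45% fell and 1.1% rose. With the mimic 1 of the 29 had an unadjusted p under 0.05, where 1903 of all 11963 genes tested did. Without mimic 3 and inhibitor 1 the counts were 5 falls and 1 rise with the inhibitor and 2 rises with the mimic, and the inhibitor falls were 2 without inhibitor 3, control 2 or control 3. Among all genes the first fit gave 833 falls and 1669 rises with the inhibitor and 492 rises with the mimic. The other fits gave 234 to 265 falls, against 450 with every array. The median was -0.09 with the inhibitor and 0.00 with the mimic. Ccl5, a chemokine that attracts T cells and monocytes, had 5.31, 5.35 and 5.01 with the mimic, 4.69, 4.94 and 4.84 with the inhibitor, and 5.71, 5.45 and 5.28 in the controls. Lgals9, which encodes the lectin galectin 9, had 6.54, 6.53 and 6.66 with the mimic, 6.11, 6.14 and 6.17 with the inhibitor, and 6.39, 6.52 and 6.58 in the controls. With the inhibitor they fell by 0.65 ± 0.12 (log2, SE; limma, adjusted p = 0.00547) and 0.36 ± 0.06 (0.0037). The inhibitor arrays of both genes lay below all other arrays.

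Nmi and Tor3a fell with the inhibitor by 0.20 and 0.19 (log2; limma, adjusted p = 0.0273 and 0.024), and each call was kept in 4 of 9 fits that drop 1 array (adjusted p up to 0.0979 and 0.0955). Pml, the organizer of nuclear bodies, rose by 0.19 (adjusted p = 0.0196), which ended after quantile normalization (0.13, 0.0654) and without inhibitor 1 or 3 or control 1 or 3 (up to 0.0809). Between mimic and inhibitor 5 of the 29 genes were higher with the mimic, where 6.91% of all genes were, and 1 was lower, where 19.9% were. Lgals9 (0.44), Ccl5 (0.40), Lgals3bp (0.38), Isg20 (0.36) and Tor3a (0.15) were higher, and Pml (-0.26) was lower. Of these, Lgals9, Isg20 and Pml held with each array left out, while Ccl5, Lgals3bp and Tor3a reached adjusted p of 0.118, 0.159 and 0.119. The membrane genes Ifitm2, Ifitm3 and Ly6e passed in no comparison, with log2 fold changes with the inhibitor of -0.12, -0.12 and -0.02.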

How the data were processed

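Total RNA of 9 transfected samples was measured on Affymetrix whole-transcript arrays. The deposited values are log2 signals of single probe sets, made with Partek 6.5 and RMA, per the submitters' processing notes. RMA, which narrows differences at low levels, corrects background, normalizes quantiles and summarizes probes by median polish. The log base follows from RMA and the range of 2.64 to 12.5. A genome build was not given in the sources used here. Of 28853 probe sets, 21789 had 1 annotated gene, 1621 several and 5443 were unnamed, and only the first kind was used. Symbols came from the platform annotation, and 19856 of 19938 genes matched RefSeq by gene ID. 0 sample columns were left unused, and no 2 arrays shared more than 3.58% of their values.

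Genes below the 40th percentile of mean level were left out of tests. Group means were fitted over the 9 arrays by limma 3.58.1 under R 4.3.3 (lmFit and eBayes, with 6 residual and 4.37 prior degrees of freedom), with Benjamini-Hochberg adjustment over 11963 genes and a threshold of 0.05. Every adjusted p comes from limma. The median moderated SD was 0.08, and the number of arrays limits the precision. The model was tested on simulated data. The members and lists were chosen with earlier results of these data known. Members past the threshold in a comparison are named with every array's value, and of the companion lists at most 8 called genes per comparison. Genes without a call that are named were picked for their role after values were seen. Alternatives were the level filter, 2 scalings, fits of 6 arrays, the replicate block, a variance trend, averaging a gene's probe sets, a 1.5-fold minimum and leaving out each array. A fit without mimic 3 and inhibitor 1 was chosen after seeing the data. Figures used matplotlib 3.10.9 in Python 3.11.15.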

Additional observations from a re-analysis of the deposited data

How the results depend on the processing

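No fold change of the 18 genes or of the called companion genes turned round with a call on either side. Of the alternatives of the 18 genes, 903 kept their side of the threshold, 47 lost a call and 7 gained one. The number of the 18 genes called was 1 with the mimic in every alternative except a fold of at least 1.5, where it was 0. With the inhibitor it ran from 2 to 6 with 1 array left out and was 1 at 1.5-fold. Between mimic and inhibitor it ran from 5 to 8 with 1 array left out, and was 4 in the fit of 6 arrays and 2 at 1.5-fold. The call that remained with the inhibitor at 1.5-fold was Trim30a. Over all genes, the mimic gave 774 calls after quantile normalization, 231 after median centring, 248 in the fit of 6 arrays, 921 without mimic 3 and inhibitor 1, 36 at 1.5-fold and 133 (without control 1) to 581 (without mimic 3) with 1 array left out, against 425. The inhibitor gave 191 at 1.5-fold and 975 (without control 1) to 2798 (without mimic 3) with 1 array left out, against 1780. Mimic against inhibitor gave 410 at 1.5-fold, 2311 in the fit of 6 arrays and 2304 (without inhibitor 1) to 3669 (without mimic 2) with 1 array left out, against 3204. The causes were not tested. Same-numbered arrays did not deviate together in every pair (r over genes of -0.59 to 0.22, over 0.1 in 5 of 9 pairs). In 6 of 18 cases the best match in another group had the same number. With 3 arrays a group, these values cannot decide whether the numbers mark a shared culture or batch. With the replicate block 1, 4 and 7 of the 18 genes were called with the mimic, with the inhibitor and between both, where Xaf1 (adjusted p = 0.0547), Bst2 (0.0779) and Tap1 (0.0573) were lost. Over all genes the block gave 289, 1575 and 3028 calls. RMA narrows differences near background, so small changes of the 16 genes below the level filter may go undetected.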

Other observations

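Among the 16 genes near background, Rtp4 and Ifit1 passed between mimic and inhibitor when the level filter was dropped (limma, adjusted p = 0.00914 and 0.0191 over 19938 genes). That fit called 2879 of the 19938 genes, 775 of them higher with the mimic and 2104 lower, so 2 of 16 is no more than usual. In the same fit Stat2 (adjusted p = 0.0526) and Bst2 (0.0788) lost their calls between mimic and inhibitor. Neither comparison with the control called any of the 16. Rtp4, a chaperone of membrane receptors that interferon induces, had 4.0, 3.85 and 4.02 with the mimic, 3.70, 3.50 and 3.59 with the inhibitor, and 3.70, 3.88 and 3.82 in the controls. Ifit1 had 3.77, 3.73 and 3.92 with the mimic, 3.60, 3.55 and 3.58 with the inhibitor, and 3.78, 3.69 and 3.81 in the controls. For both genes the mimic arrays all lay above the inhibitor arrays. Of the 16 genes, 13 had a log2 fold change below 0 with the inhibitor (-0.21 to 0.06) and 10 with the mimic (-0.06 to 0.15). The median over all 19938 genes was -0.01 with the inhibitor. Macrophage, lymphocyte, endothelial and epithelial markers lay mostly near background, and 7 of 8, 4 of 5, 3 of 3 and 2 of 4 were below 0 with the inhibitor. Signs thus leaned down in the small macrophage, lymphocyte and endothelial sets as well, though not in the epithelial one. For genes near background such a lean is not particular to the list, and the tested genes are not part of this comparison.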
